A study of Mus musculus with 4 samples.

Results

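A set of 7 genes of retinoid synthesis, transport, signalling and breakdown were described here, taken by their symbol among the 31054 genes of the deposited matrices: Aldh1a1, Aldh1a2, Aldh1a3, Rbp4, Stra6, Rarb and Cyp26b1. All 7 were found, and each had at least 1 UMI (unique molecular identifier, a counted RNA molecule) in the kept cells of each library. The study sorted the stromal vascular fraction, the non-adipocyte cells freed by digesting the fat pad, from gonadal white adipose tissue of 18-month-old male p16-CreERT2/R26-LSL-tdTomato mice. In these mice tamoxifen lets p16-expressing cells switch on the red protein tdTomato (Tom) for good, so Tom+ cells are the p16high cells and Tom- cells the p16low cells. All 4 libraries share this genotype and age, and they differ in the labelled sort. The library labelled CD45- Tom+ kept 3886 cells, the one labelled CD45- Tom- 3674, then CD45+ Tom+ 1927 and lastly CD45+ Tom- 4391. Values of the 4 libraries are given in that order throughout. Each group is 1 library, the sources used here do not give the number of mice behind it, and therefore no p-value, standard error or SD between replicates can be given. Levels are UMIs summed over the cells of a class and scaled to counts per 1000000 UMIs of that class (CPM), with 95% Poisson intervals, and all intervals cover counting error only.

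The Tom label held in the summed levels, though not in every cell, and the CD45 label did not separate the cells. The tdTomato transcript stood at 732, 8.86, 733 and 10.1 CPM in stromal cells and at 702, 33.1, 719 and 34.7 CPM in leukocytes. It had a UMI in 86.5%, 17.2%, 77.9% and 19.2% of stromal cells and in 93.6%, 28.0%, 92.5% and 31.7% of leukocytes. Stromal classes, which should lack CD45, made up 13.0%, 58.5%, 10.8% and 53.2% of the kept cells, and leukocyte classes 62.7%, 36.1%, 62.6% and 40.3%, so both libraries of 1 Tom label held nearly the same mixture whichever CD45 sort they are labelled with. Ptprc, the gene of CD45, was at 282, 569, 294 and 601 CPM in leukocytes and at 22.5, 11.6, 14.9 and 10.2 CPM in stromal cells, so that the cells could be told apart by their own RNA. The extraction text names the fourth sort as CD45- Tom-, while the sample's own label says CD45 positive. Counted over all barcodes, the Tom- libraries also had 4394 cell barcodes in common and the other pairs between 26 and 1134. Counted over barcodes kept in both libraries, the Tom- libraries had 10 in common and the other pairs between 1 and 14. Of the kept cells 15.5%, 38.6%, 11.5% and 29.6% carried a barcode that occurs in another library, kept there or not. Levels without these cells are given beside those with them.

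Retinoic acid is made from vitamin A. Retinol travels in blood bound to Rbp4, enters cells with the help of the receptor Stra6, is oxidised to retinal, and is then turned into retinoic acid by the retinaldehyde dehydrogenases Aldh1a1, Aldh1a2 and Aldh1a3. Retinoic acid binds nuclear receptors such as Rarb, which act on DNA with retinoid X receptors, and Cyp26b1 breaks it down. In the abdomen, mesothelial and stromal cells are a known source of the retinoic acid that peritoneal macrophages depend on for the transcription factor Gata6.

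The genes lie on 5 chromosomes of the mouse genome (GRCm38, GENCODE vM21 annotation), and all are protein coding. Aldh1a1 is at chr19:20492715-20643465 on the plus strand and Rbp4 at chr19:38116629-38125281 on the minus strand. Aldh1a2 is at chr9:71215789-71296243 and Stra6 at chr9:58063788-58153996, both on the plus strand. Aldh1a3 (chr7:66390890-66427517), Rarb (chr14:16430839-16819156) and Cyp26b1 (chr6:84571414-84593908) are on the minus strand. Promoters of 3 of them are printed, as RefSeq gives them on GRCm38.p6, 5′ to 3′ on the strand of the gene: 250 bases before the start site and 50 bases from it. Rarb is shown because it is a receptor whose own promoter holds a retinoic acid receptor motif, and Aldh1a1 and Aldh1a2 because they were high in the same cells. Capitals mark the DR5 motif in Rarb (chr14:16575427-16575726), CCAAT and AGATAA in Aldh1a1 (chr19:20601718-20602017), and CCAAT in Aldh1a2 (chr9:71215539-71215838). For Aldh1a1 2 promoters are listed, and the one without a marked motif is not printed.

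Rarb: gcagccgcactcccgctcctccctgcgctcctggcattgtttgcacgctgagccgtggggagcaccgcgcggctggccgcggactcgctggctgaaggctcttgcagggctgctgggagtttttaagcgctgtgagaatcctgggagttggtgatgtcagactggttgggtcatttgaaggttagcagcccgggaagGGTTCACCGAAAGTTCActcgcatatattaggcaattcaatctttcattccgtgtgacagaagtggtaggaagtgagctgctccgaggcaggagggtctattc
Aldh1a1: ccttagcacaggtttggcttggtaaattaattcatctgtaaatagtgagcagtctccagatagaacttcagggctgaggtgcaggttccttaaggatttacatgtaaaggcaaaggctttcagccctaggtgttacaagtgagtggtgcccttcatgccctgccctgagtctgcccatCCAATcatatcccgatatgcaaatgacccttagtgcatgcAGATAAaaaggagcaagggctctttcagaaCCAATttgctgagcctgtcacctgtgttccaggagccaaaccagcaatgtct
Aldh1a2: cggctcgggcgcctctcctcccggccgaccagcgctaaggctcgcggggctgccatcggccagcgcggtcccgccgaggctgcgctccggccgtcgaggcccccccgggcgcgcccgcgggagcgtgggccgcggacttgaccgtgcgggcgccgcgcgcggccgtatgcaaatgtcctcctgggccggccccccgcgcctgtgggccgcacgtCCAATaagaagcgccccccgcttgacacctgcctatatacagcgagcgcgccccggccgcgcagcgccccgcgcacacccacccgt

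The DR5 motif was searched as any pair drawn from the hexamer AGGTCA, the hexamer AGTTCA, the hexamer GGGTCA and the hexamer GGTTCA in the same direction with 5 bases between them, on both strands. It occurred in 32 of 32851 promoters (0.0974%) and, among the 11 promoters listed for 6 of the genes, only in that of Rarb, where it lies 53 to 37 bases before the start site. The same hexamers 2 bases apart (DR2) were found in 0.268% and 1 base apart (DR1) in 0.222% of all promoters, and in no promoter of these genes. CCAAT, found in 37.4% of all promoters, occurred in 4 of the 11, those of Aldh1a1, Aldh1a2, Rbp4 and Stra6 (1 promoter each), and AGATAA or TGATAA, found in 18.6%, in 2 of the 11, those of Aldh1a1 and Stra6. The marked motifs do not overlap. A match is a description of these letters and not a bound site. No promoter is listed for Aldh1a3.

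Classes were named from marker lists, and each name stands for cells like that type (mesothelial-like and so on). Progenitor cells (adipose stromal progenitors, 262, 1519, 106 and 1714 cells), mesothelial cells (the sheet that covers the fat pad, 65, 372, 30 and 376 cells) and Cxcl13 stromal cells (177, 258, 72 and 244 cells) were the 3 stromal classes. Mesothelial cells had all 8 of their markers raised. Cxcl13 stromal cells had their 3 markers raised, and all 8 mesothelial markers as well. Their summed mesothelial markers were at 1064 to 1223 CPM, against 3972 to 4502 in mesothelial cells and 171 to 187 in progenitors, and their summed progenitor markers at 8621 to 12993 CPM, against 3213 to 4138 in mesothelial cells and 18493 to 21476 in progenitors. In progenitors the mesothelial sum was nearly all Wt1 (165 to 182 CPM), and no other marker of it passed 2.55 CPM. In Cxcl13 stromal cells Wt1 was at 435 to 502 CPM, against 475 to 544 in mesothelial cells. Upk3b was at 110 to 134 against 933 to 1053 CPM, and Msln at 17.7 to 37.0 against 541 to 628 CPM. Col1a1, Col3a1 and Lum carried most of the progenitor sum. In Cxcl13 stromal cells Dpt was at 55.4 to 140 CPM, Pi16 at 2.35 to 3.17 and Fgf10 at 0 to 1.27. Progenitors held 1540 to 1947, 73.8 to 180 and 30.6 to 35.7 CPM of these. Pdgfra was similar (362 to 585 against 420 to 495 CPM). Dpp4 was higher in mesothelial cells (202 to 232 CPM) than in progenitors (29.2 to 43.5 CPM). The myeloid classes were macrophages (537, 196, 277 and 262 cells), Arg1 myeloid cells (170, 312, 84 and 385 cells, with 7 of the 8 macrophage markers raised as well), monocytes and dendritic cells. The dendritic class is 1 cluster that had all 6 dendritic markers raised and all 4 markers of Ccr7 dendritic cells as well. None of the 7 genes or the wider retinoid list took part in the clustering. B cells, which should lack these genes, are given as a rough guide to stray RNA. They were shallow (median depth 5296 to 6510 UMIs), so their CPM need not be the stray level of deeper classes. Over all libraries Aldh1a1 was at 3.23 CPM in B cells and at 0.698 CPM in plasma cells, whose median depth was 39068 UMIs.

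**Figure D1:**
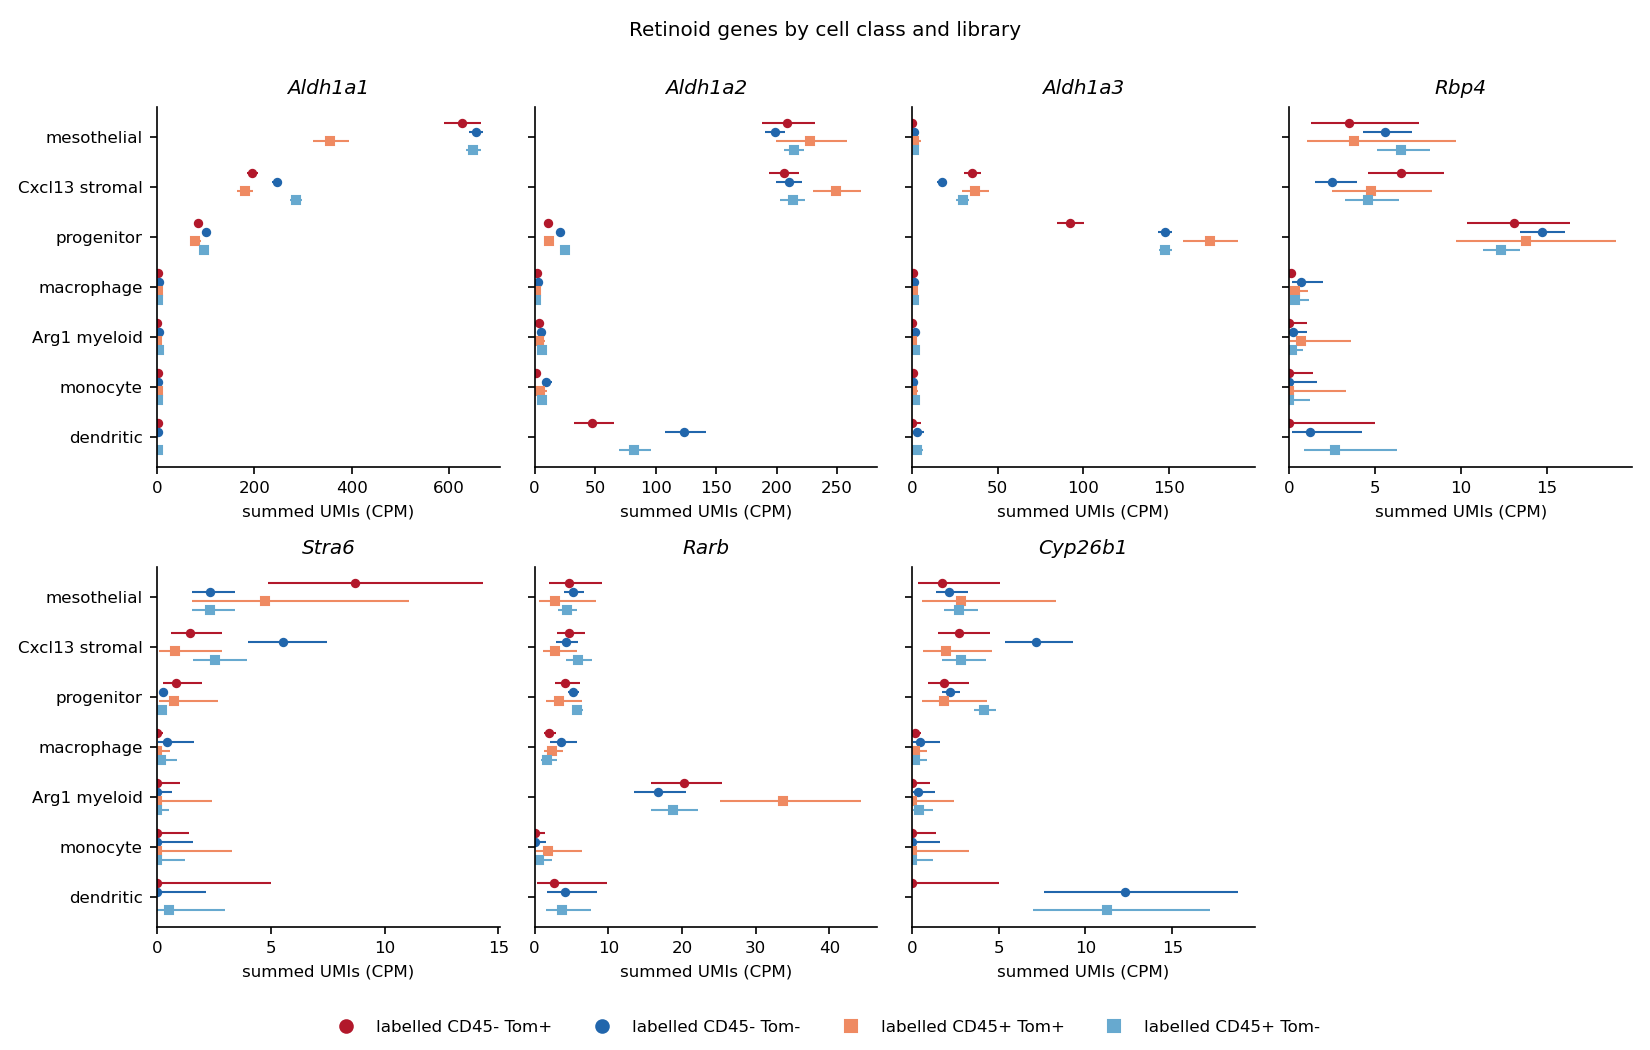
Level of each retinoid gene (summed UMIs in CPM, horizontal axis, its own linear scale per panel) in 7 cell classes (vertical axis) of the 4 libraries, with 95% Poisson intervals for counting error. Aldh1a1 was highest in mesothelial cells (356 to 656 CPM), Aldh1a2 in mesothelial and Cxcl13 stromal cells, Aldh1a3 and Rbp4 in progenitors, and Rarb in Arg1 myeloid cells (16.8 to 33.7 CPM).

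Rbp4 and Stra6 were low in every class of the plot of levels. Rbp4, the blood carrier of retinol, also known as an adipokine, was highest in progenitors, at 13.1, 14.7, 13.8 and 12.3 CPM. It was at 6.52, 2.51, 4.76 and 4.59 CPM in Cxcl13 stromal cells, at 3.48, 5.56, 3.79 and 6.52 CPM in mesothelial cells and at most 0.671 CPM in macrophages and Arg1 myeloid cells. The values of progenitors lay above all those of the other 2 stromal classes, which overlapped each other. In Cxcl13 stromal cells of the library labelled CD45- Tom+ 1 cell held 17 of the 36 Rbp4 UMIs, and the level without it was 3.46 CPM. Within progenitors, whose clusters are called by leading genes, Rbp4 was uneven: the Sfrp1 and Ptx3 cluster held 39.9, 26.6 and 25.0 CPM in the libraries with at least 20 of its cells (all but CD45+ Tom+), against 6.29, 9.38, 15.5 and 9.02 CPM in the largest progenitor cluster (1578 cells, led by Ogn) and 5.54 and 2.82 CPM in the Sema3c and Pi16 cluster of the Tom- libraries.

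Stra6, the retinol receptor, gave few UMIs. Mesothelial cells held 15, 26, 5 and 27 UMIs (8.70, 2.33, 4.74 and 2.35 CPM), Cxcl13 stromal cells 8, 42, 2 and 20 UMIs (1.45, 5.54, 0.794 and 2.55 CPM) and progenitors 5, 9, 2 and 9 UMIs (0.839 CPM at most). No UMI was seen in Arg1 myeloid cells, monocytes, B cells or T cells. Mesothelial and Cxcl13 stromal cells overlapped, and single cells carried much of the signal: in the library labelled CD45- Tom+, 1 mesothelial cell held 13 of the 15 UMIs, and the level without it was 1.19 CPM.

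Aldh1a1, which oxidises retinal to retinoic acid, was highest in mesothelial cells among the 3 stromal classes, but was not confined to them. It was at 628 (interval 591 to 666), 656 (641 to 671), 356 (321 to 394) and 651 (636 to 666) CPM in mesothelial cells and had a UMI in 97.1% to 100% of them. Cxcl13 stromal cells followed with 196, 246, 181 and 286 CPM and progenitors with 84.2, 99.9, 78.3 and 95.9 CPM. Of progenitors 74.0%, 78.2%, 74.5% and 78.7% had a UMI. The 3 ranges did not overlap, and the order was the same in all 4 libraries. After each cell was thinned to 2000 UMIs, 62.5%, 61.5%, 56.7% and 65.6% of mesothelial cells, 29.4%, 36.9%, 23.6% and 36.4% of Cxcl13 stromal cells and 17.0% to 18.8% of progenitors still had a UMI. In macrophages (1.32, 3.58, 1.69 and 2.05 CPM) and Arg1 myeloid cells (0 to 3.75 CPM) it was within the range of B cells (0 to 4.58 CPM). B cells had a UMI of it in 0% to 3.33% of cells before thinning and in at most 3 of 300 cells after it, with a median depth of 5296 to 6510 UMIs, against 26993 to 36296 in mesothelial cells. Beyond these classes, 28 epithelial-like cells of the Tom+ libraries (leading genes Gpx5 and Spag11b, known from the epididymis) held 372 and 393 CPM of Aldh1a1. Aldh1a7, a close paralog whose reads may be shared with Aldh1a1, was at 3.79 to 7.74 CPM in mesothelial cells.

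Aldh1a2, the retinaldehyde dehydrogenase known from embryonic mesoderm and the mesothelium, did not order mesothelial and Cxcl13 stromal cells. It stood at 209, 199, 227 and 214 CPM in mesothelial cells and at 206, 210.1, 249 and 213 CPM in Cxcl13 stromal cells. The log2 ratio of mesothelial over Cxcl13 stromal cells was 0.02 (-0.15 to 0.19), -0.08 (-0.17 to 0.01), -0.13 (-0.35 to 0.08) and 0.01 (-0.08 to 0.10), so that counting error alone spans 0 in each library. Progenitors were far lower, at 11.2, 20.8, 11.6 and 25.1 CPM. Macrophages (1.39 to 2.46 CPM) were near the B cells, which held 0, 1.41, 0 and 3.66 CPM. Arg1 myeloid cells (3.604, 5.11, 3.89 and 5.84 CPM) lay above the B cells of each library, with counting intervals that overlapped theirs. Monocytes (1.13, 9.52, 4.45 and 5.999 CPM) lay above them as well. Dendritic cells were the only leukocyte class clearly above the B cells in each library with at least 20 of them, with 47.4, 124 and 82.4 CPM (not CD45+ Tom+, which had 14 cells).

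Aldh1a2 was spread over most mesothelial and Cxcl13 stromal cells but sat in few progenitors. A count of 5 UMIs or more, a limit chosen after the values were seen, was reached by 55.4%, 57.3%, 66.7% and 61.2% of mesothelial cells and by 108 of 3601 progenitors (3.00%), and these 108 cells held 1397 of the 1885 Aldh1a2 UMIs of the class (74.1%). They numbered 5, 38, 2 and 63 in the 4 libraries. The share was 1.71% in the largest progenitor cluster, 3.09% in the Postn and Col1a1 cluster, 5.50% in the Sfrp1 and Ptx3 cluster, 2.45% in the Sema3c and Pi16 cluster and 6.52% (3 of 46 cells) in the Cxcl9 cluster. The highest progenitor cell held 70 UMIs, against 26 for the highest mesothelial cell.

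Summed over the libraries, mesothelial markers were at 189 CPM in these Aldh1a2-high progenitors and at 185 CPM in the other progenitors, and progenitor markers at 19862 and 20775 CPM. By library, mesothelial markers were at 289, 197, 356 and 171 CPM in them against 168, 187, 181 and 186 CPM, the 2 higher values being those of 5 and 2 cells. Over all libraries Wt1 alone made up most of the mesothelial sum, at 181 against 176 CPM. Upk3b was at 2.12 against 1.89 CPM and Msln at 0.909 against 1.83 CPM. The summed markers of Cxcl13 stromal cells were at 416 against 72.3 CPM. The high cells differed in the chemokine Cxcl13, itself one of these markers, at 359 against 56.3 CPM, and in the long pentraxin Ptx3, at 797 against 315 CPM. In the library labelled CD45- Tom- Cxcl13 was at 503 against 62.9 CPM and in CD45+ Tom- at 316 against 52.4 CPM, while the 5 and 2 high cells of the Tom+ libraries held none. Aldh1a1 (87.3 against 96.6 CPM) and Aldh1a3 (123 against 145 CPM) were not higher in them. Of the high cells 64.8% carried a barcode that occurs in another library, against 40.6% of the other progenitors, and their median depth was 28834 against 22209 UMIs. The part of these features in the result was not tested. In dendritic cells the UMIs were also uneven, with 19 of 235 cells at 5 or more UMIs holding 69.3% of them.

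**Figure D2:**
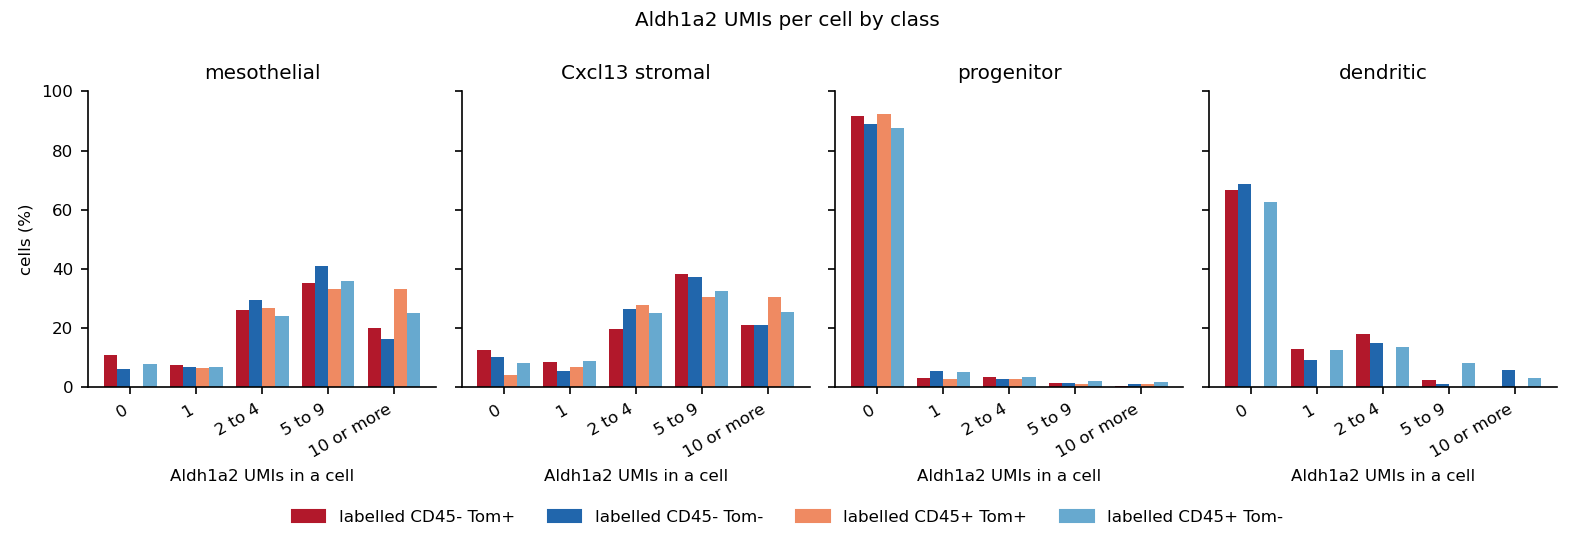
Share of cells (vertical axis, percent) by the number of Aldh1a2 UMIs they held (horizontal axis), in 4 classes and 4 libraries; dendritic cells of the library labelled CD45+ Tom+ are left out as under 20 cells. Most mesothelial and Cxcl13 stromal cells held 2 or more UMIs, while 87.7% to 92.5% of progenitors held none.

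Aldh1a3 ran the other way. It was highest in progenitors, at 92.3 (84.7 to 100.3), 147 (143 to 151), 174 (158 to 190.3) and 148 (144 to 152) CPM, with a UMI in 59.5%, 69.6%, 68.9% and 71.8% of them. Without the highest cell of each library the levels were 88.4, 145, 133 and 146 CPM. Cxcl13 stromal cells held 35.1, 17.3, 36.5 and 29.5 CPM. Mesothelial cells held 0, 1.17, 0.948 and 1.39 CPM, that is 0, 13, 1 and 16 UMIs, near the level in B cells (0, 6.34, 1.72 and 1.37 CPM). The 3 stromal classes thus did not overlap for Aldh1a3 either, in the reverse order of Aldh1a1. After thinning, 18.0% to 27.4% of progenitors, 4.17% to 7.65% of Cxcl13 stromal cells and at most 0.271% of mesothelial cells had a UMI.

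Within progenitors Aldh1a3 was highest in the Sema3c and Pi16 cluster, the interstitial progenitors, at 283 and 279 CPM in the Tom- libraries, the only ones with at least 20 of these cells. The largest progenitor cluster held 122, 199, 222 and 195 CPM and the Sfrp1 and Ptx3 cluster 124, 165 and 180.3 CPM (not CD45+ Tom+). The Postn and Col1a1 cluster, rich in collagen transcripts, was at 40.5, 67.8, 18.1 and 71.2 CPM, the lowest in 3 libraries, while in CD45+ Tom- the Cxcl9 cluster of 46 cells was at 64.9 CPM. Aldh1a1 was lowest in the Postn and Col1a1 cluster in each library, at 47.1, 65.8, 58.4 and 62.5 CPM, against 98.1 to 123 CPM in the largest cluster.

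The enzymes were also seen in the same cells. Aldh1a1 and Aldh1a2 were both detected in 89.2%, 93.3%, 100% and 91.2% of mesothelial cells, where the product of the separate shares was 89.2%, 93.1%, 100% and 89.6%. In Cxcl13 stromal cells both were detected in 80.2%, 86.0%, 87.5% and 86.9%, with products of 76.7% to 86.5%, and in progenitors in 5.73%, 8.69%, 4.72% and 10.4%. The pair of progenitors was Aldh1a1 with Aldh1a3, detected together in 47.3%, 56.1%, 57.5% and 58.4% of the cells (products 44.1%, 54.4%, 51.3% and 56.5%). Cxcl13 stromal cells were the class in which Aldh1a2 and Aldh1a3 met most often, in 29.9%, 19.0%, 29.2% and 23.8% of the cells. The joint shares lay near the products, and cells of 1 library share its depth, so no dependence between the genes is read from them.

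Ratios between classes were taken within a library, so that no library was set against another. Effects that fall unequally on the classes of a library stay in them. In CD45- Tom-, 114 of 372 mesothelial cells, 78 of 258 Cxcl13 stromal cells and 773 of 1519 progenitors had no shared barcode. A gene averaging 5 CPM or more over the compared classes was called when it lay at least 2-fold apart in the same direction in all 4 libraries. Between mesothelial cells and progenitors 17.5% of 10250 genes were called. Of 4 retinoid genes compared Aldh1a1 (log2 ratio 2.90, 2.71, 2.19 and 2.76) and Aldh1a2 (4.21, 3.26, 4.30 and 3.09) were called higher in mesothelial cells and Aldh1a3 lower (-6.98, -7.52 and -6.73, and at most -5.73 in CD45- Tom+, where no UMI was seen and the bound takes 3 counts). Rbp4 was lower in each library (-1.91, -1.40, -1.86 and -0.92) but short of 2-fold in the last.

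Between Cxcl13 stromal cells and progenitors 12.3% of 10008 genes were called. All 4 retinoid genes compared were: Aldh1a1 (1.22, 1.30, 1.21 and 1.58) and Aldh1a2 (4.19, 3.34, 4.43 and 3.08) as higher, and Aldh1a3 (-1.39, -3.09, -2.25 and -2.33) and Rbp4 (-1.01, -2.55, -1.53 and -1.42) as lower in Cxcl13 stromal cells. Without the cells of shared barcodes only Aldh1a2 and Aldh1a3 were called, with Aldh1a1 at 0.88, 1.11, 0.95 and 1.34. Between mesothelial and Cxcl13 stromal cells 7.75% of 10010 genes were called, among them, of 3 compared, Aldh1a3 as lower in mesothelial cells (-3.89, -5.27 and -4.41, and at most -4.34 in CD45- Tom+). With the wider cell filter (at least 500 genes, under 20% mitochondrial UMIs) the Aldh1a3 ratio in the library labelled CD45+ Tom+ was 1.03 and the call was lost, as it was at clustering resolution 2 and after thinning. Aldh1a1 missed the call only in CD45+ Tom+ (1.68, 1.41, 0.98 and 1.19). Between macrophages and progenitors 32.8% of 10021 genes were called, and Aldh1a1, Aldh1a2, Aldh1a3 and Rbp4, all 4 compared, were lower in macrophages, the least of the ratios being -2.31 (Aldh1a2, CD45- Tom+).

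The order of the stromal classes was the same for Aldh1a1 and Aldh1a3 without the cells that had a shared barcode. Without them Aldh1a1 was at 622, 751, 340 and 725 CPM in mesothelial cells, at 171, 270.0, 168 and 278 CPM in Cxcl13 stromal cells and at 93.2, 125, 87.1 and 109.7 CPM in progenitors. Aldh1a2 was at 203, 199, 238 and 224 CPM, at 200.4, 182, 258 and 186 CPM and at 8.99, 14.4, 15.1 and 16.6 CPM in the same classes. Aldh1a3 was at 102, 187, 207 and 188 CPM in progenitors, at 37.6, 16.3, 20.8 and 49.2 CPM in Cxcl13 stromal cells and at 3.21 CPM at most in mesothelial cells. Rbp4 was at 12.8, 10.9, 15.1 and 12.0 CPM in progenitors, at 9.66, 3.88, 4.85 and 5.54 CPM in Cxcl13 stromal cells and at 3.75, 4.13, 5.39 and 4.95 CPM in mesothelial cells. Stra6 was at 9.38, 0.459, 5.39 and 1.65 CPM in mesothelial cells and at 0.692 to 3.103 CPM in Cxcl13 stromal cells. Rarb stayed highest in Arg1 myeloid cells, at 21.1, 18.0, 35.6 and 20.5 CPM.

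**Figure D3:**
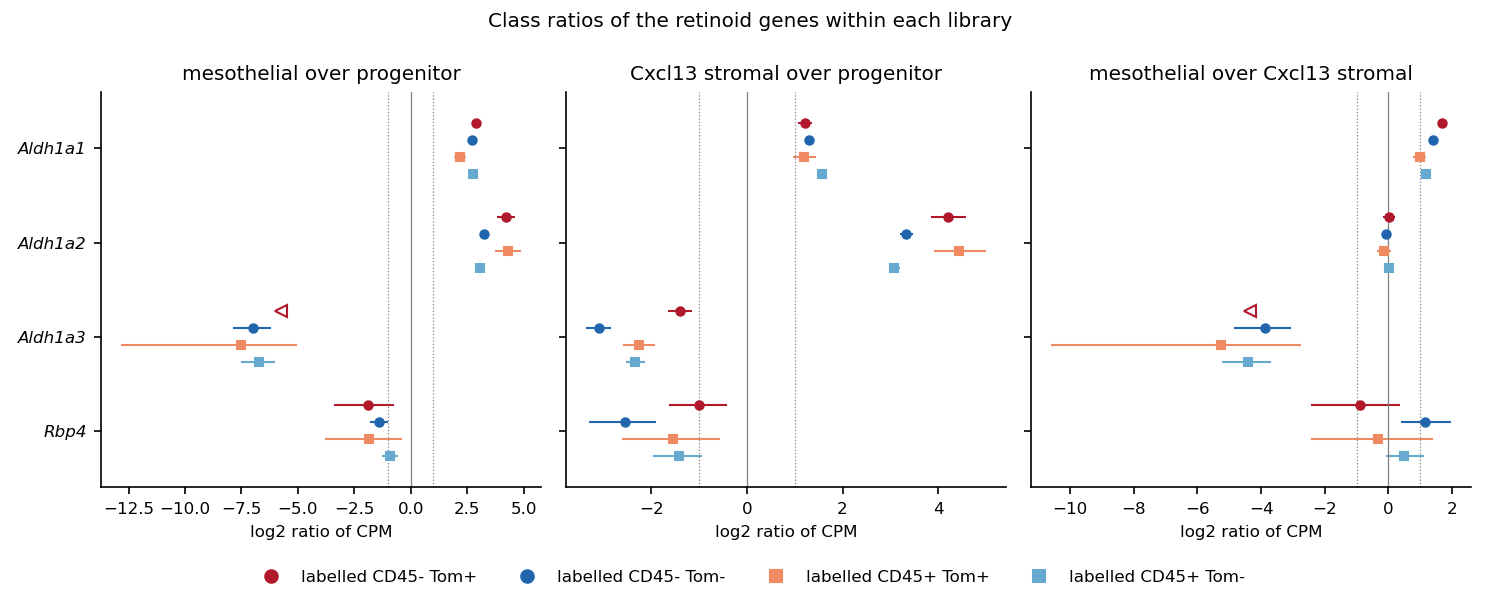
Log2 ratio of CPM between classes (horizontal axis) for 4 retinoid genes in each of the 4 libraries, with exact 95% intervals for counting error; open triangles are upper bounds where the numerator had no UMI, and dotted lines mark 2-fold. Aldh1a1 and Aldh1a2 lay to the right and Aldh1a3 to the left of 0 against progenitors, and Aldh1a2 lay at 0 between mesothelial and Cxcl13 stromal cells.

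Rarb, the nuclear receptor that retinoic acid itself is known to raise, was highest in a myeloid class. Arg1 myeloid cells held 73, 92, 52 and 135 UMIs, that is 20.2 (15.9 to 25.4), 16.8 (13.5 to 20.6), 33.7 (25.2 to 44.2) and 18.8 (15.7 to 22.2) CPM, in 19.9% to 29.8% of the cells (median depth 16846 to 20718 UMIs). Mesothelial (2.84 to 5.20 CPM), Cxcl13 stromal (2.78 to 5.87 CPM) and progenitor cells (3.36 to 5.81 CPM) overlapped each other, and all lay below it. Monocytes held 0, 0, 1.78 and 0.667 CPM and B cells 0.704 CPM at most. After thinning to 2000 UMIs 4.71%, 3.85%, 5.95% and 3.90% of Arg1 myeloid cells and no B cell had a Rarb UMI.

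Macrophages as a class held little Rarb (1.97, 3.58, 2.31 and 1.73 CPM), but their 2 clusters differed. The cluster led by Marco and Vsig4, scavenger and complement receptors of resident macrophages, was at 7.33, 18.9, 7.20 and 8.68 CPM. Arg1 was also among its leading genes, and 2 of the 3 Arg1 myeloid markers were raised in it. In CD45- Tom- its level (48 cells) lay above the 16.8 CPM of the Arg1 myeloid cells. The cluster led by Gpnmb, a glycoprotein of lipid-laden macrophages, was at 0.0987, 0.272, 0.426 and 0 CPM. The 2 clusters did not overlap.

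The Arg1 class was split further at clustering resolution 2, a step taken after its Rarb level had been seen. The Vsig4/Marco part, with more summed UMIs of these genes, held 61, 78, 33 and 85 cells (257 in all) and the other, with more Ccr2, the chemokine receptor of recruited monocytes, held 106, 230, 50 and 297 (683). The other 11 of the 951 cells fell into other clusters at this resolution and are in neither part. Vsig4 UMIs were found in 12.9% to 26.2% of the cells in the Vsig4/Marco part and in 1.30% to 10.4% in the other. Rarb was at 29.0, 32.8, 52.4 and 37.8 CPM in the Vsig4/Marco part and at 14.6, 10.9, 16.7 and 13.3 CPM in the other, and the ranges did not overlap. The log2 ratios were 0.99 (0.29 to 1.72), 1.59 (0.97 to 2.22), 1.65 (0.71 to 2.68) and 1.505 (0.99 to 2.01), so the first fell just short of 2-fold and Rarb was not called, where 3.04% of 8741 genes were. Without shared barcodes Rarb was at 30.5, 30.2, 53.1 and 39.7 against 14.99, 13.3, 18.3 and 15.05 CPM.

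The list of 7 peritoneal macrophage genes known to depend on Gata6 or retinoic acid was counted across this split, which was drawn in the same cells, so the values describe it and test nothing. Of 6 compared, all 6 were called higher in the Vsig4/Marco part: Gata6, Icam2, Prg4, Alox15, F5 and Aspa. Gata6, the transcription factor of large peritoneal macrophages, was at 52.5, 34.9, 68.5 and 47.0 CPM against 3.88, 2.79, 2.57 and 4.20, and Prg4, a secreted lubricant protein, at 133, 122, 142 and 162 CPM against 2.91, 3.04, 1.29 and 5.30. Icam2, an adhesion protein, was at 55.2, 34.9, 51.1 and 74.4 CPM against 3.86 to 7.76. Tgm2, a transglutaminase known to respond to retinoic acid, was at 772, 636, 490.5 and 622 CPM against 292 to 343, short of 2-fold in CD45+ Tom+ (0.75) and CD45+ Tom- (0.97). Rara (39.0 to 46.5 against 47.6 to 54.5 CPM) was not higher in the Vsig4/Marco part, and Aldh1a2 was at 1.35, 3.42, 0 and 2.44 CPM against 5.34, 5.32, 7.71 and 6.94 CPM. Aldh1a1, high in mesothelial cells, was at 0.673, 5.47, 0 and 2.44 CPM in the Vsig4/Marco part, at the level of B cells.

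**Figure D4:**
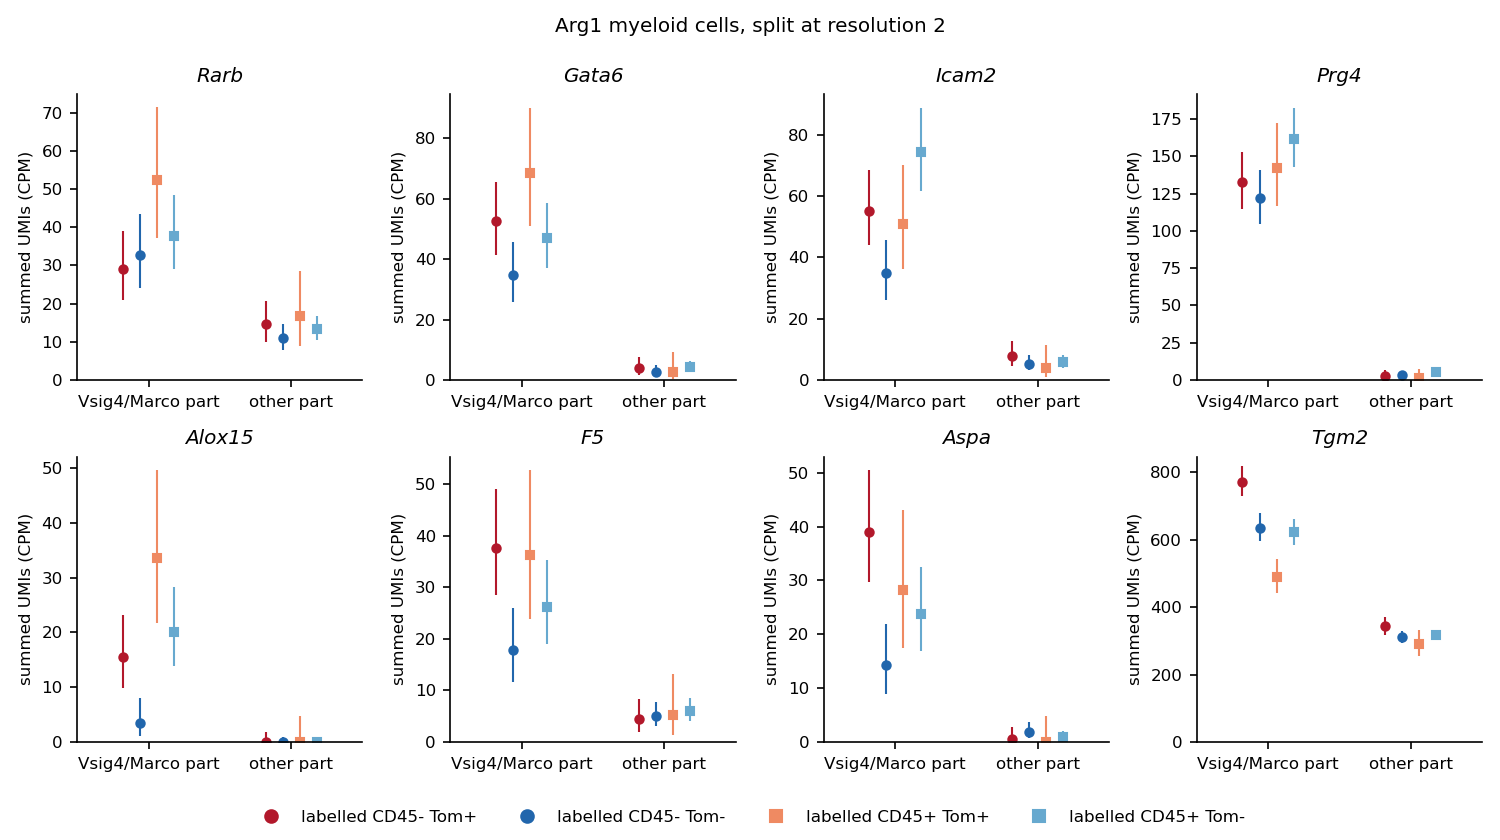
Summed UMIs (CPM, vertical axis from 0) of Rarb, the 6 called peritoneal genes and Tgm2 on the Vsig4/Marco side and the other side of the Arg1 myeloid class, 1 point per library with its 95% Poisson interval. Rarb was at 29.0 to 52.4 CPM in the Vsig4/Marco part and 10.9 to 16.7 CPM in the other, and Alox15 was at 0 in the other part in all 4 libraries.

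Cyp26b1, the enzyme that clears retinoic acid, was low in the classes above: 1.74, 2.15, 2.84 and 2.70 CPM in mesothelial cells, 2.71, 7.13, 1.98 and 2.81 CPM in Cxcl13 stromal cells, 1.85, 2.22, 1.86 and 4.16 CPM in progenitors and 0.447 CPM at most in macrophages. Stromal classes overlapped. The high value in Cxcl13 stromal cells came from 1 cell with 34 of 54 UMIs, without which it was 2.66 CPM, and it was 1.55 CPM without shared barcodes. In 3 libraries the level was above all these classes in a cluster with both endothelial (Cldn5, Cdh5) and mural (Rgs5) markers, at 60.0, 273, 70.2 and 8.25 CPM, the last below the dendritic cells of that library. There 7 of 382 cells held 397 of 431 UMIs, 1 cell held 248 of the 294 in the library labelled CD45- Tom-, and the level without the highest cell of each library was 25.5, 44.2, 19.2 and 5.27 CPM. The libraries therefore could not be ordered by it. Dendritic cells of the Tom- libraries held 12.3 and 11.2 CPM, in 4 cells for the most part (33 of 42 UMIs), and 1.07 and 0 CPM without shared barcodes.

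Tom+ and Tom- libraries were compared within 7 classes, which is the comparison of p16high and p16low cells that the sorts were made for. A gene averaging 5 CPM or more over the pair was called at 2-fold or more in either direction. In mesothelial cells 2.13% of genes were called in the pair labelled CD45- and 4.24% in the pair labelled CD45+. The log2 ratio of Tom+ over Tom- for Aldh1a2 was 0.07 (-0.09 to 0.23) and 0.09 (-0.11 to 0.28) and for Aldh1a1 -0.06 (-0.16 to 0.03) and -0.87 (-1.02 to -0.72). The lower Aldh1a1 of the second pair came from 30 cells, beside a difference of 0.82 between the 2 Tom+ libraries (CD45- over CD45+). Without shared barcodes Aldh1a1 was at 622 against 751 CPM (-0.27) in the first pair and at 340 against 725 CPM (-1.09), past 2-fold, in the second, where it was also past 2-fold at resolution 2 (-1.05) and at -0.34 after thinning. Stra6 alone was called (1.90, 0.88 to 2.87, pair labelled CD45-), on the 15 UMIs of which 1 cell held 13. At resolution 2 and with the wider cell filter Stra6 was not called, and Aldh1a3 was called higher in Tom+ cells instead.

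In Cxcl13 stromal cells 1.65% and 3.97% of genes were called. Aldh1a3 was called higher in Tom+ cells of the pair labelled CD45- (35.1 against 17.3 CPM, 1.02, 0.70 to 1.35). In the other pair it was at 36.5 against 29.5 CPM (0.31, -0.06 to 0.66), and the 2 Tom- libraries were -0.77 apart. The call was lost with doublets kept (0.38), with the wider cell filter (0.49), at resolution 2 (0.43), with 4000 variable genes (0.81), after thinning (0.46) and with each cell weighing the same (0.85), and without shared barcodes the other pair turned to -1.24. Aldh1a1 was at -0.33 (-0.44 to -0.22) and -0.66 (-0.81 to -0.52), below 0 in both pairs and short of 2-fold, and Aldh1a2 was at -0.03 and 0.23.

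In progenitors 1.45% and 1.52% of genes were called. Aldh1a2 was lower in Tom+ cells, at 11.2 against 20.8 CPM (-0.89, -1.27 to -0.53) and at 11.6 against 25.1 CPM (-1.12, -1.69 to -0.61), and was called in the second pair only. Without shared barcodes the ratios were -0.68 and -0.14, and with the wider cell filter 0.54 and -0.64, so that neither the size nor the direction held. An unnamed cluster outside this class, with progenitor and plasma cell markers raised, held 41, 2, 73 and 0 Aldh1a2 UMIs. In the Tom+ libraries that was 12.4 and 46.9 CPM, with 25 of the 41 and 44 of the 73 UMIs in 1 cell each. The part of this cluster in the ratios was not tested. Aldh1a3 was lower in 1 pair (-0.68) and higher in the other (0.23), with the 2 Tom+ libraries -0.91 apart. In the second pair 1 Tom+ cell held 113 of the 466 Aldh1a3 UMIs, and without it the Tom+ level was 133 CPM, below the 148 CPM of the Tom- library. Aldh1a1 (-0.25 and -0.29) and Rbp4 (-0.17 and 0.16) were not called. In macrophages, where 1.43% and 2.07% of genes were called, no retinoid gene reached 5 CPM. In Arg1 myeloid cells, where 2.13% and 3.90% were called, Rarb was at 0.27 (-0.19 to 0.73) and 0.85 (0.36 to 1.32), not called, with the 2 Tom+ libraries -0.74 apart. In monocytes 6.45% and 8.37% of genes were called, and Aldh1a2 alone, the 1 retinoid gene compared, was lower in Tom+ cells of the pair labelled CD45- (1.13 against 9.52 CPM, -3.07, -5.45 to -1.34). It rested on 3 against 22 UMIs, of which 1 cell held 13, and turned to 1.72 at resolution 2 and to 0.31 after thinning, while the other pair was at -0.43 (4.45 against 5.999 CPM).

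In dendritic cells the pair labelled CD45- alone had at least 20 cells in each library, and there 11.0% of genes were called. Aldh1a2 was lower in Tom+ cells, at 47.4 against 124 CPM (-1.38, -1.94 to -0.86). A single Tom- cell held 77 of its 211 UMIs and the level without it was 79.7 CPM, and with each cell weighing the same the ratio was -0.88 and not called. Without shared barcodes it was at 53.2 against 128 CPM (-1.26). Cyp26b1 was called on 0 against 21 UMIs (0 against 12.3 CPM, at most -1.60), and without shared barcodes it held 0 and 1 UMI.

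Plasma cell transcripts moved with the Tom label in the stromal classes and Arg1 myeloid cells: the 5 summed plasma cell markers were at 1293, 96.6, 757 and 88.7 CPM in mesothelial cells, 1224, 103, 1255 and 102 CPM in Cxcl13 stromal cells, 1864, 165, 2591 and 154 CPM in progenitors, and 1684, 241, 1772 and 225 CPM in Arg1 myeloid cells. None of the 5 markers was at 0 in these classes. The 6 mast cell markers moved likewise (68.4, 18.2, 48.3 and 11.5 CPM in mesothelial cells). Plasma cells themselves made up 21.1%, 1.06%, 22.1% and 1.32% of the kept cells, and mast cells 9.24%, 1.03%, 8.98% and 1.07%. The part of these shares in the marker sums, and of the transcripts in the Tom ratios, was not tested. Over all genes the median log2 Tom ratio lay between -0.13 and 0.00 in the 7 classes.

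**Figure D5:**
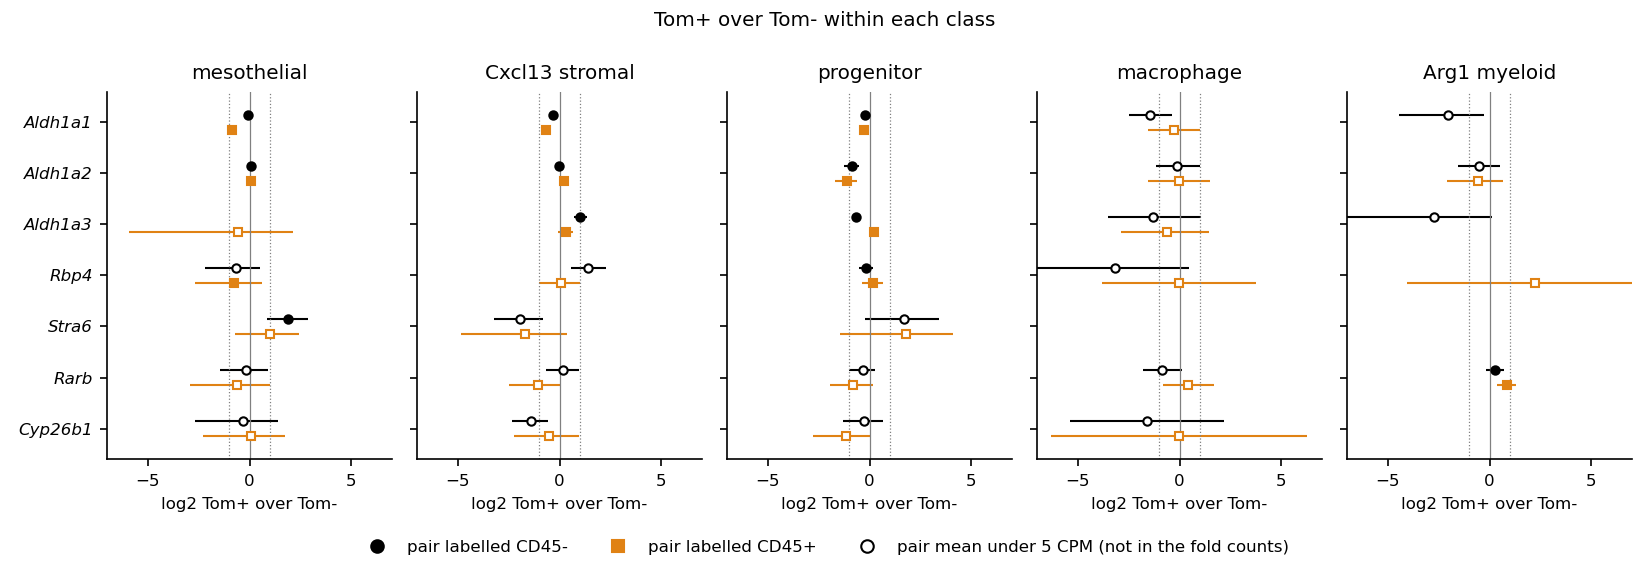
Log2 ratio of CPM of Tom+ over Tom- (horizontal axis) for the 7 retinoid genes in 5 classes, for the pair labelled CD45- (circles) and CD45+ (squares), with exact 95% intervals for counting error, cut at the axis limits; open symbols are pairs with a mean under 5 CPM and dotted lines mark 2-fold. Among filled symbols only Stra6 (mesothelial, 1.90), Aldh1a3 (Cxcl13 stromal, 1.02) and Aldh1a2 (progenitor, -1.12) lie past 2-fold, each in 1 pair.

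The wider retinoid list held 63 genes, counted by the same rules. They are genes of uptake, conversion, breakdown, signalling and response, together with the 7 peritoneal macrophage genes counted above. Between mesothelial cells and progenitors 9 of 36 compared were higher and 7 lower, where 17.5% of all genes were called, with a median log2 ratio of -0.13 against 0.13 over all genes. Between Cxcl13 stromal cells and progenitors 6 of 35 were higher and 8 lower (12.3% of all genes, median -0.27 against 0.05), and between mesothelial and Cxcl13 stromal cells 2 of 33 were higher and 3 lower (7.75% of all genes, 0.15 against 0.11). Between macrophages and progenitors 5 of 33 were higher (Akr1b3, Akr1b8, Dhrs3, Dhrs9 and Fabp5) and 11 lower (32.8% of all genes, -0.64 against -0.02). Those higher in mesothelial cells than in progenitors were Alox15, Dhrs9, Fabp5, Gata6, Lrp2, Prg4, Rarres1, Rdh10 and Tgm2, and those lower Adh1, Aspa, Dgat1, Dhrs3, Hic1, Lpl and Nr2f1. Of these, Alox15, Aspa, Gata6 and Prg4 are among the peritoneal macrophage genes. Between mesothelial and Cxcl13 stromal cells Lrp2 and Prg4 were higher, and Hic1 and Lpl were among those lower.

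The genes of uptake and binding split the classes. Lrp2 (megalin), an endocytic receptor that takes up the Rbp4 and retinol complex, was at 260.3, 232, 198 and 204 CPM in mesothelial cells, at 20.2 to 52.7 CPM in Cxcl13 stromal cells and at 0.576 CPM at most in progenitors. Fabp5, a fatty acid carrier that also binds retinoic acid, was at 1668 to 1968 CPM in macrophages and at 32.0 to 34.9 CPM in progenitors. Lpl, lipoprotein lipase, was at 2143 to 3201 CPM in progenitors and 18.9 to 30.6 CPM in mesothelial cells.

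The genes of the step before the Aldh1a enzymes, from retinol to retinal, differed between the classes. Rdh10, the main retinol dehydrogenase of embryos, was at 90.4, 106, 90.0 and 106 CPM in mesothelial cells, at 79.4 to 145 CPM in Cxcl13 stromal cells and at 35.4 to 41.4 CPM in progenitors. Dhrs9, another retinol dehydrogenase, was at 56.2 to 70.5 CPM in mesothelial cells and at 0.839 CPM at most in progenitors. Adh1, an alcohol dehydrogenase that accepts retinol, was at 152, 189, 129.8 and 189 CPM in progenitors, 0.580 to 7.58 CPM in mesothelial and 0.397 to 1.45 CPM in Cxcl13 stromal cells. Dhrs3, which turns retinal back to retinol and is known to respond to retinoic acid, was at 437 to 474 CPM in macrophages, 352 to 379 in Arg1 myeloid cells, 171 to 213 in progenitors and 56.8 to 81.2 in mesothelial cells.

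Other receptors were more even than Rarb. Rara was at 18.6 to 25.9 CPM in mesothelial cells, 33.3 to 38.3 in Cxcl13 stromal cells, 32.1 to 39.2 in progenitors and 43.5 to 50.9 in Arg1 myeloid cells. Rarg, Rxra and Rxrb were at 14.3 to 45.5 CPM in these classes. Among genes known to respond to retinoic acid, Tgm2 was at 256 to 314 CPM in mesothelial cells, 94.5 to 208 in Cxcl13 stromal cells, 24.6 to 43.1 in progenitors and 386 to 514 in Arg1 myeloid cells, while Nr2f1, an orphan nuclear receptor, was at 57.2 to 66.7 CPM in progenitors and 1.19 to 2.90 in the other 2 stromal classes. Gata6 was not only a macrophage gene: it was at 384 to 422 CPM in mesothelial cells, 438 to 494 in Cxcl13 stromal cells and 99.6 to 110.0 in progenitors, against 11.3 to 34.4 in Arg1 myeloid cells.

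Across the Tom label, 4 of 29 genes of the wider list were higher and 1 lower in Tom+ Arg1 myeloid cells of the pair labelled CD45- (2.13% of all genes were called), and 3 of 31 higher and 1 lower in the pair labelled CD45+ (3.90%). Gata6 (23.8 against 11.3 CPM, and 34.4 against 13.9 CPM) and Aspa (16.4 against 5.11 CPM, and 13.6 against 6.12 CPM) were higher in both pairs, Icam2 and F5 in the first pair and Alox15 in the second. All of these higher genes are among the peritoneal macrophage genes of the list. The Vsig4/Marco part made up 61 of 170, 78 of 312, 33 of 84 and 85 of 385 Arg1 myeloid cells, a larger share in both Tom+ libraries, and its part in these values was not tested. Rarres2 was lower in Tom+ cells of both pairs in Arg1 myeloid cells (1.11 against 10.4 CPM, and 1.95 against 10.3 CPM) and in macrophages (2.49 against 9.39 CPM, and 2.93 against 10.1 CPM), beside the smaller stromal share of the Tom+ libraries given above, whose part was not tested either (progenitors held 687 to 881 CPM of it).

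In mesothelial cells none of 34 genes of the wider list passed 2-fold across the Tom label in the pair labelled CD45- (2.13% of all genes), and of 36 in the pair labelled CD45+ (4.24% of all genes) Adh1 was higher, Aldh1a7 and Alox15 lower. In Cxcl13 stromal cells, where 1.65% and 3.97% of all genes passed, 1 of 33 and 5 of 33 did. Prg4 was lower in both pairs (15.9 against 39.5 CPM, and 12.7 against 41.7 CPM), and in the pair labelled CD45+ also Alox15, Lrp2 and Tgm2 were lower and Rarres1 higher. In progenitors (1.45% and 1.52% of all genes) none of 32 passed in the pair labelled CD45-, while of 33 in the other Prg4 was higher and Rdh5 lower. Monocytes had 3 of 26 and 5 of 25 genes past 2-fold (6.45% and 8.37% of all genes), with Dhrs9 higher in Tom+ cells of both pairs, and dendritic cells of the pair labelled CD45- had 4 of 19 (11.0% of all genes).

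The genes whose pattern over 20 classes was most like each enzyme, by Pearson r of log2(CPM + 1) among 10162 genes, followed the same lines. For Aldh1a1 they were Adgrd1 (0.992), Ildr2 (0.989) and Wt1 (0.982), for Aldh1a2 Fcor (0.938), Ifi205 (0.938) and Cyp7b1 (0.927), and for Aldh1a3 Mfap4 (0.9798), Ccl19 (0.955) and Fndc5 (0.954). For Cyp26b1 they were Shroom4 (0.865), Notch4 (0.834) and Zfp366 (0.832), all highest in the cluster with endothelial and mural markers. The classes share their libraries and depth, and r is given as a description.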

How the data were processed

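Stromal vascular cells of 4 sorted libraries were profiled by 10x Genomics 3' RNA sequencing (v3.1 chemistry). As deposited by the authors, the matrices hold raw UMI counts per gene and cell barcode, made with Cell Ranger 3.0.2 on mm10 with a tdTomato row; 3' counts do not compare levels between genes. The libraries held 64083756 to 139397501 UMIs in 3429 to 11255 barcodes. As in the study, a barcode had to show more than 1000 but fewer than 7000 genes, with less than 8% of its UMIs mitochondrial. In a step that the study does not describe, the highest Scrublet scores (0.8% of barcodes per 1000 barcodes) were left out as doublets (54 to 427 cells per library). Cells were clustered with scanpy 1.11.5 and leidenalg 0.10.2 (2000 variable genes, 30 components, 15 neighbours, resolution 1, no retinoid gene), giving 28 clusters, of which 22 were named by at least 3 markers at 20 CPM and 4-fold or more. A further 6 mixed clusters stayed unnamed and are in no Tom ratio. Among them, 150 cells (70, 9, 66 and 5) had 6 of 8 progenitor and 4 of 5 plasma cell markers raised. Another 82 cells (25, 0, 57 and 0) had all 3 Cxcl13 stromal and 7 of 8 mesothelial markers raised. Both clusters lay mostly in the Tom+ libraries, and their part in the Tom ratios was not tested. Kept cells had a median of 18331 to 19502 UMIs. UMIs were summed per class and library, with exact Poisson, binomial and conditional intervals (95%, scipy 1.17.1), a floor of 3 counts for a bound, and at least 20 cells. The study's test over cells was not used, since cells are not replicates. The scripts were tested on simulated data.

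Genes and lists were chosen with earlier results of these data known. Named genes were the 7 genes, genes of the wider list at 20 CPM or more in every library of a class described, and the 3 genes most alike to each gene of 20 CPM or more in a class. Genes named outside this rule (Aldh1a7, Rarres1, Rdh5, Cxcl13, Ptx3 and leading genes of clusters) were chosen after their values were seen. Alternatives changed the cell filter, doublets, variable genes, resolution, depth (2000 UMIs a cell), cell weight, shared barcodes, the 5 CPM filter and the fold. Protein sequences were not used here. A gene of the wider list is not reported here by name.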

Additional observations from a re-analysis of the deposited data

How the results depend on the processing

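No paired analysis was possible because each group is 1 library, and for the same reason no library could be left out of a comparison of Tom+ with Tom-. Comparisons of classes were repeated with each library left out, a step added after the data were seen: between mesothelial cells and progenitors 3 to 4 genes were called (Rbp4 also, without CD45+ Tom-), between mesothelial and Cxcl13 stromal cells 1 to 2 (Aldh1a1 also, without CD45+ Tom+), and in both other comparisons 4 each time. Of the log2 ratios of the 7 genes recomputed, 916 moved by less than their counting interval, 213 moved by more and 3 changed sign after having been called. Aldh1a3 in mesothelial over Cxcl13 stromal cells, library labelled CD45+ Tom+, was 1.03 with the wider cell filter (at least 500 genes, under 20% mitochondrial UMIs) against -5.27 as reported. Aldh1a2 in monocytes, pair labelled CD45-, was 1.72 at resolution 2 and 0.31 after thinning, against -3.07 as reported. The cause was not tested. The counts of retinoid genes called between mesothelial cells and progenitors (3) and between macrophages and progenitors (4) stayed within 1.5 times under every alternative run.

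Between Cxcl13 stromal cells and progenitors 4 genes were called, but 2 after thinning and 2 without shared barcodes. Between mesothelial and Cxcl13 stromal cells 1 was called, but 2 at 1.5-fold, 0 at resolution 2, 0 with the wider filter and 2 without shared barcodes. For Tom+ against Tom-, the pair labelled CD45- of mesothelial cells went from 1 to 0 with doublets kept, with cells weighing the same, after thinning and without shared barcodes, and with the wider filter and at resolution 2 the 1 gene called was Aldh1a3 and no longer Stra6. The pair labelled CD45+ went from 0 to 2 at 1.5-fold and at resolution 2, and to 1 with the wider filter, with no filter on low values, after thinning and without shared barcodes. In Cxcl13 stromal cells the pair labelled CD45- went from 1 to 0 with the wider filter, with cells weighing the same and after thinning, to 4 with no filter on low values and to 2 without shared barcodes, while with doublets kept, at resolution 2 and with 4000 variable genes the 1 gene called was Cyp26b1 and no longer Aldh1a3, and the pair labelled CD45+ from 0 to 1 at 1.5-fold, after thinning and without shared barcodes and to 2 with no filter. In progenitors the pair labelled CD45+ went from 1 to 0 with the wider filter and without shared barcodes and to 3 with no filter, and the pair labelled CD45- from 0 to 2 at 1.5-fold and to 1 with no filter. In macrophages the pair labelled CD45- went from 0 to 5 with no filter and to 1 without shared barcodes. In Arg1 myeloid cells the pair labelled CD45+ went from 0 to 1 at 1.5-fold and with no filter, and the pair labelled CD45- to 2 with no filter and to 1 after thinning. In monocytes the pair labelled CD45- went from 1 to 0 at resolution 2, after thinning and without shared barcodes, and the pair labelled CD45+ from 0 to 1 with no filter. In dendritic cells the pair labelled CD45- went from 2 to 1 with doublets kept, after thinning and without shared barcodes, and to 0 with cells weighing the same. With under 20 named monocytes in a library, no value was had with doublets kept, nor for their pair labelled CD45+ at resolution 2. The cause of these shifts was not tested.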
